A study of Caenorhabditis elegans with 6 samples.

Results

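The neuropeptide and insulin-like peptide genes of Caenorhabditis elegans were taken by symbol, as every gene row whose name starts with flp-, nlp- or ins- and a number. The rule gave 114 genes of 46748 gene rows, namely 31 flp genes, 44 nlp genes and 39 ins genes. Their messenger RNA was compared between anchor cells and whole-body cells, which is the comparison the study was designed for. Of the 114 genes, 71 had enough counts to be tested, made up of 26 flp, 34 nlp and 11 ins genes, among 11955 tested genes in all.

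Both groups came from wild-type animals at mid L3, at the stage with 2 daughters of the vulval precursor cell P6.p. In both groups the animals were kept at 20 °C, and their tissues were dissociated with 15 mg/mL of pronase E and strained through a 5 μm filter. Each group had 3 libraries, made from 8 to 10 ng of RNA by an amplifying kit. The labels do not describe the step that isolated the anchor cells, nor do they say whether the replicates were separate cultures, so p-values measure only the spread between these libraries. The libraries held 23279623 to 37501816 gene counts each. Of 10 anchor cell marker genes, 7 were called higher in the anchor cell libraries at the threshold given below, beside 2.01% of all tested genes. None was called lower, and 9 of the 10 had a log2 fold change above 0 and 1 below 0.

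The flp genes encode FMRFamide-like peptides, the nlp genes a mixed group of other neuropeptide-like proteins, and the ins genes relatives of insulin. Flp and nlp precursors are cut by proprotein convertases, trimmed by carboxypeptidases, stored in dense core vesicles and released to act mostly on G protein-coupled receptors. Insulin-like peptides act on DAF-2, the worm's insulin receptor, either to activate it or to block it, and DAF-2 signalling holds the transcription factor DAF-16 out of the nucleus. Neurons are the best known source of these peptides, but the intestine, epidermis and gonad make some as well. The anchor cell is a single uterine cell that induces the vulva, breaches the basement membrane beneath it and connects uterus and vulva, the passage through which eggs are later laid.

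Levels are given as CPM, the count scaled to the library's effective size after TMM normalization, in the order of replicates 1, 2 and 3. A gene was called at a Benjamini-Hochberg adjusted p under 0.05 in edgeR's quasi-likelihood test over all 11955 genes. Of the 71 tested peptide genes, flp-10 and flp-25 rose in anchor cells and none fell. The 2 rises are 2.82% of the tested peptide genes, beside 2.01% of all tested genes called higher, so the share is close to the background. For falls the background is 1.05%. At an unadjusted p under 0.05 edgeR gave 2 lower peptide genes, or 2.82%, beside 13.2% of all tested genes. DESeq2 called 3 of 81 lower, or 3.70%, beside 10.6% of all genes, and limma voom 2 of 71, or 2.82%, beside 9.02%, so each share of falls was below its own background. Higher calls by DESeq2 numbered 5 of 81, or 6.17%, beside 5.37% of all genes, and by limma voom 2 of 71, beside 3.26%. With sample weights voom called 2 higher, beside 5.55% of all genes, and 3 lower, or 4.23%, beside 11.4%. In bulk RNA, more cells that express a gene and more RNA per cell cannot be told apart.

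The one with the higher level per kilobase of exon was flp-10, on chromosome IV at 7868907 to 7870081 of WBcel235. Its peptide acts with that of flp-17 on the receptor EGL-6, and both inhibit egg laying. The anchor cell libraries held 2737, 4280 and 6783 flp-10 counts, and the whole-body libraries 524, 881 and 658. In CPM, flp-10 stood at 109, 218.9 and 326.7 in anchor cells and at 12.7, 14.2 and 23.3 in whole-body cells. The lowest anchor cell library lay well above the highest whole-body library, so the groups did not overlap. The log2 fold change of flp-10 was 3.71 ± 0.54 (SE, n = 3 per group), a 13.1-fold difference, with an edgeR adjusted p of 0.0102. It passed the threshold in all 16 alternative fits, with log2 fold changes from 2.82 to 4.03.

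The partner peptide gene gave almost no reads, and the receptor gene gave few in anchor cells. For flp-17, 1, 1 and 0 counts were found in anchor cells and 8, 4 and 0 in whole-body cells, too few to test. The receptor gene egl-6 had 8, 0 and 0 counts in anchor cells and 10, 33 and 25 in whole-body cells, and was not tested either. In CPM egl-6 stood at 0.319, 0 and 0 in anchor cells and at 0.242, 0.531 and 0.884 in whole-body cells.

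The other called gene was flp-25, on chromosome III at 9361528 to 9365380. Its counts were 1348, 222 and 1271 in anchor cells and 121, 124 and 43 in whole-body cells. In CPM, flp-25 reached 53.7, 11.4 and 61.2 in anchor cells against 2.93, 2.00 and 1.52 in whole-body cells. Anchor cell replicate 2 was the lowest of its group and still above every whole-body library. The log2 fold change of flp-25 was 4.29 ± 0.79 (SE, n = 3 per group), a 19.5-fold difference, with an edgeR adjusted p of 0.0238. The call was lost without whole-body replicate 2, at an adjusted p of 0.0685, and without whole-body replicate 3, at 0.128, while the log2 fold change stayed at 4.22 and 4.09.

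A pair of flp genes lay near the threshold without passing it. The gene flp-9 stood at 44.8, 157.7 and 217.5 CPM in anchor cells and at 42.8, 18.7 and 7.46 CPM in whole-body cells. Its lowest anchor cell library lay just above its highest whole-body library. The log2 fold change of flp-9 was 2.61 ± 0.75 with an edgeR adjusted p of 0.0692. It passed in 4 of 16 alternative fits. With DESeq2, with no filter on low counts and without anchor cell replicate 1 its adjusted p was 0.0368, 0.000632 and 0.0339. The remaining fit took the replicate number as a block.

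The gene flp-11, whose peptides are released by the sleep-promoting neuron RIS, rested on a single library. It stood at 1.43, 3.38 and 45.5 CPM in anchor cells and at 1.26, 1.24 and 0.672 CPM in whole-body cells. Anchor cell replicates 1 and 2 were close to the whole-body libraries, and replicate 3 was far above them. The log2 fold change of flp-11 was 3.98 ± 1.304 with an edgeR adjusted p of 0.0952, and without anchor cell replicate 3 it was 1.18 with an adjusted p of 0.533. It passed with DESeq2, with no filter and without anchor cell replicate 1, at adjusted p of 0.0117, 0.0139 and 0.0409. An exon of flp-11 shares 17 bases with tmem-135 on the other strand, and whether the counting used strand is not stated.

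**Figure D1:**
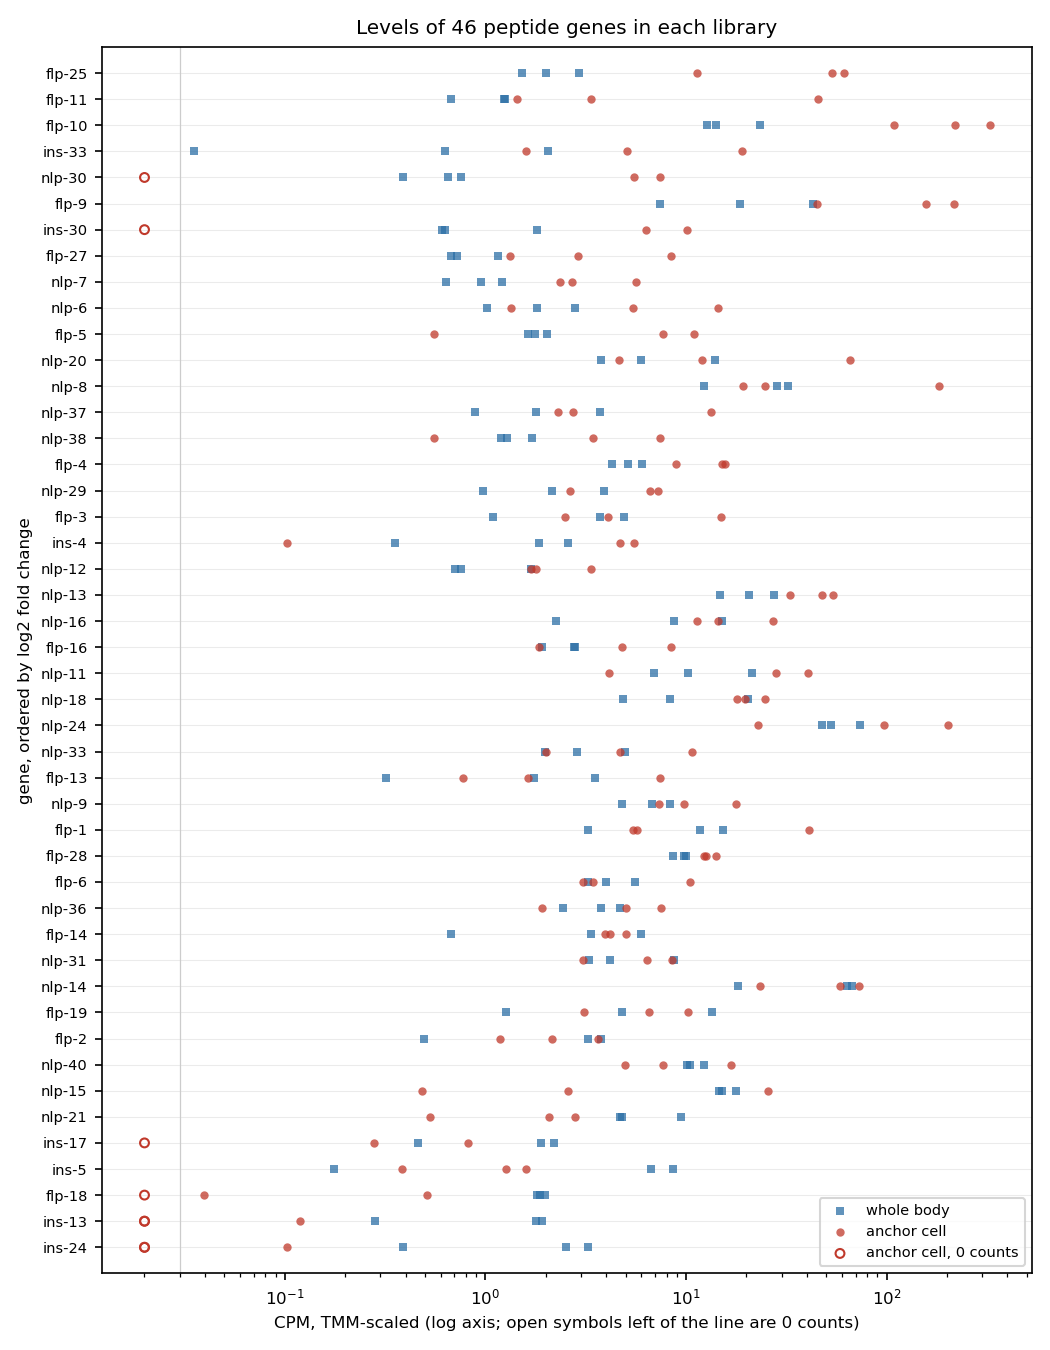
Levels of the named peptide genes in CPM (log axis) in each library, with a circle for each anchor cell library and a square for each whole-body library; open circles left of the line are 0 counts. The anchor cell points of flp-10 and flp-25 lie apart from the whole-body points, while those of most other genes are mixed with them.

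For most of the remaining flp genes the groups overlapped. For flp-28 the anchor cell libraries lay at 12.3, 12.5 and 14.1 CPM and the whole-body libraries at 9.74, 8.59 and 10.0 CPM. The values were even within each group, and the groups did not overlap. The difference was small, with a log2 fold change of 0.45 ± 0.63 and an edgeR adjusted p of 0.721, and its sign turned with libraries scaled by their totals alone. For flp-4 the values were 15.7, 15.1 and 8.91 CPM in anchor cells and 6.03, 5.13 and 4.28 CPM in whole-body cells, again apart, with an edgeR adjusted p of 0.278. For flp-1, whose peptides regulate locomotion, anchor cell replicate 3 alone stood high, at 40.8 CPM beside 5.46 and 5.68, and the whole-body libraries lay at 15.4, 11.8 and 3.25 CPM. For flp-13, a sleep-inducing peptide gene of the ALA neuron, the values were 1.63, 7.42 and 0.771 CPM in anchor cells and 3.51, 1.74 and 0.318 CPM in whole-body cells, fully mixed.

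The gene flp-27 was apart in the same direction as flp-4, at 2.91, 1.33 and 8.43 CPM in anchor cells and 1.16, 0.724 and 0.672 CPM in whole-body cells, with an edgeR adjusted p of 0.281. For flp-5 anchor cell replicate 1 was low, with 14 counts beside 215 and 160, and at 0.557 CPM it lay below every whole-body library, at 2.03, 1.63 and 1.77 CPM, while the other two lay above them. For flp-3 anchor cell replicate 2 was high, at 14.9 CPM beside 2.51 and 4.09, and the whole-body libraries held 4.89, 3.72 and 1.10 CPM. Neither flp-5 nor flp-3 passed. For flp-14 the anchor cell libraries were even, at 3.94, 5.01 and 4.19 CPM, within the 5.96, 3.38 and 0.672 CPM of whole-body cells. The gene flp-2, whose peptides promote arousal, stood at 2.15, 1.18 and 3.66 CPM in anchor cells and 3.78, 3.25 and 0.495 CPM in whole-body cells, also mixed.

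On the low side, flp-18 encodes peptides that act on NPR-4 and NPR-5. It stood at 0.0398, 0.512 and 0 CPM in anchor cells and at 1.99, 1.80 and 1.87 CPM in whole-body cells. All 3 whole-body libraries were alike and above every anchor cell library, but the log2 fold change of -3.35 ± 1.71 did not pass, with an edgeR adjusted p of 0.269. The gene flp-7 was apart as well, at 0.717, 0 and 0.385 CPM in anchor cells and 2.93, 1.71 and 2.19 CPM in whole-body cells, with an edgeR adjusted p of 0.356; limma voom with sample weights called it lower. No read of flp-20 or flp-23 was found in any anchor cell library. Against 74 whole-body counts, flp-20 was at least 12.3-fold lower in anchor cells, and against 61 counts flp-23 was at least 10.1-fold lower, with 3 counts over the group as the floor. Both were below the filter and were not tested by edgeR; DESeq2 called flp-20 lower. The reads were amplified and carry no molecular identifiers, so floors and counting intervals cover counting error only.

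No nlp gene passed the test in either direction with edgeR, and none had an unadjusted p under 0.05; DESeq2 and limma voom called none either. The highest per kilobase of exon was nlp-24, which stood at 22.8, 96.9 and 202.0 CPM in anchor cells and 47.7, 73.9 and 52.9 CPM in whole-body cells. The anchor cell libraries of nlp-24 spread on both sides of the whole-body libraries, and its log2 fold change was 0.88 ± 0.66. The gene nlp-8, which is expressed in the ALA neuron with flp-13, stood at 182.8, 19.2 and 24.9 CPM in anchor cells and at 28.3, 32.4 and 12.4 CPM in whole-body cells. Anchor cell replicate 1 was far above the rest for nlp-8, while replicates 2 and 3 fell within the whole-body range. The orcokinin-like gene nlp-14 stood at 58.4, 23.3 and 73.0 CPM in anchor cells and at 67.2, 63.4 and 18.3 CPM in whole-body cells, nearly the same means, of 51.6 ± 25.5 and 49.6 ± 27.2 CPM (SD, n = 3).

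The groups of nlp-13 and nlp-7 did not overlap. For nlp-13 the anchor cell libraries lay at 32.9, 47.9 and 54.3 CPM and the whole-body libraries at 27.6, 20.7 and 14.9 CPM, with a log2 fold change of 1.10 ± 0.50 and an edgeR adjusted p of 0.212. The gene nlp-7 stood at 5.65, 2.71 and 2.36 CPM in anchor cells and at 1.21, 0.950 and 0.636 CPM in whole-body cells, with an edgeR adjusted p of 0.348. Its peptides inhibit egg laying, whereas those of nlp-3 promote it. For nlp-3 the values were 4.98, 4.04 and 0.145 CPM in anchor cells and 4.12, 1.80 and 4.10 CPM in whole-body cells, mixed.

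Several further nlp genes were read in every library without a difference past the threshold. For nlp-18 the anchor cell libraries held 17.9, 19.6 and 24.9 CPM and the whole-body libraries 20.4, 8.32 and 4.88 CPM. For nlp-16 they held 11.4, 14.5 and 27.2 CPM and 15.1, 8.69 and 2.26 CPM. In both genes the highest whole-body library, replicate 1, lay within the anchor cell range. For nlp-11 anchor cell replicate 1 was lowest of all, at 4.14 CPM beside 28.1 and 40.6, and the whole-body libraries held 21.4, 10.2 and 6.89 CPM. For nlp-12, a cholecystokinin-like gene, the values were 3.35, 1.69 and 1.78 CPM in anchor cells and 1.70, 0.756 and 0.707 CPM in whole-body cells. The groups of nlp-12 met at 1.69 and 1.70 CPM, and its edgeR adjusted p was 0.636.

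Some nlp genes differed more within the anchor cell group than between groups. For nlp-15 the anchor cell libraries stood at 2.59, 25.6 and 0.482 CPM, around the 14.6, 15.1 and 17.9 CPM of the whole-body libraries. For nlp-20, anchor cell replicate 3 held 65.7 CPM beside 4.66 and 12.1 CPM, and the whole-body libraries held 3.75, 5.97 and 13.96 CPM. Among the tested nlp genes, nlp-21 alone had all its anchor cell libraries below the whole-body ones, at 2.07, 2.81 and 0.530 CPM against 4.82, 4.70 and 9.40 CPM, with an edgeR adjusted p of 0.333. For nlp-40, made in the intestine to drive the defecation rhythm, the values were 4.98, 16.8 and 7.71 CPM in anchor cells and 10.2, 12.3 and 10.5 CPM in whole-body cells, with overlap.

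A cluster of nlp genes on chromosome V encodes antimicrobial peptides of the epidermis that are induced by fungal infection and wounding. With relatives it made a list of 11 genes, of which 9 were tested and none passed in either direction, with a median log2 fold change of 0.15. For nlp-29, the best known, the values were 2.63, 7.21 and 6.65 CPM in anchor cells and 0.969, 2.16 and 3.92 CPM in whole-body cells, which overlap. For nlp-30 the values were 7.41, 0 and 5.49 CPM in anchor cells and 0.654, 0.756 and 0.389 CPM in whole-body cells, so that replicate 2 had no reads where the other two anchor cell libraries were high. Summed over 15 epidermal marker genes, the anchor cell libraries held 1299, 3207 and 8249 CPM and the whole-body libraries 768.4, 1605 and 483.3 CPM. A single gene made up 51.4% of the mean sum in anchor cells. None of the 15 was called by edgeR, and their median log2 fold change was 1.61. At an unadjusted p under 0.05 in edgeR 8 were higher, or 53.3%, and 2 lower, or 13.3%, beside 11.2% and 13.2% of all tested genes. The part of epidermal RNA in the levels of these nlp genes was not tested.

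The ins genes were the sparsest family. Only ins-33 had at least 10 counts in all 3 anchor cell libraries, and 6 of 39 did so in all 3 whole-body libraries. In anchor cells ins-33 stood at 1.59, 19.03 and 5.06 CPM, and in whole-body cells at 0.630, 2.06 and 0.0354 CPM. Its lowest anchor cell library was below its highest whole-body library, and the log2 fold change of 3.22 ± 1.45 had an edgeR adjusted p of 0.207. For ins-30 the anchor cell values were 0, 10.1 and 6.36 CPM and the whole-body values 0.606, 0.628 and 1.80 CPM, again mixed.

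Among the insulin-like peptides that activate DAF-2, ins-4, ins-6 and daf-28 are known for preventing dauer arrest. For ins-4 the values were 4.70, 0.102 and 5.54 CPM in anchor cells and 1.84, 2.58 and 0.354 CPM in whole-body cells. For ins-6 they were 0.438, 1.64 and 0 CPM in anchor cells and 0.363, 0.435 and 0.141 CPM in whole-body cells. The related gene daf-28, which the naming rule leaves outside the family, stood at 7.01, 9.87 and 2.02 CPM in anchor cells and at 12.3, 8.50 and 1.56 CPM in whole-body cells. The groups overlapped for all 3 of these agonist genes, and none passed the test.

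The lowest ins genes relative to whole-body cells were ins-24 and ins-13. The anchor cell libraries held 0, 2 and 0 counts of ins-24 and the whole-body libraries 134, 156 and 11. As a ratio of summed counts per effective size, ins-24 was 74.8-fold lower in anchor cells (95% exact counting interval 20.5 to 620.1), with an edgeR adjusted p of 0.101. For ins-13 the counts were 3, 0 and 0 against 79, 111 and 8, a ratio of 32.8 (95% interval 11.1 to 160.3) with an edgeR adjusted p of 0.139. Fitted fold changes of genes with so few reads depend on the prior count and give no bound. For both genes the groups were apart, and DESeq2 and limma voom called both genes lower, with or without sample weights for voom. Exons of ins-13 share 87 bases with acdh-2 on the same strand, so its counts depend on how shared reads were assigned. For ins-5 the whole-body libraries held 6.69, 8.63 and 0.177 CPM, with replicate 3 far below the others, and the anchor cell libraries 1.27, 1.59 and 0.385 CPM, within that range.

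The genes ins-1 and ins-18 encode peptides reported to block DAF-2. For ins-18 the values were 0.398, 1.54 and 0 CPM in anchor cells and 0.775, 0.531 and 2.51 CPM in whole-body cells, mixed, and ins-1 was too low to test, with 9, 1 and 4 counts against 25, 20 and 0. For ins-17 the values were 0.279, 0.819 and 0 CPM in anchor cells and 2.20, 1.90 and 0.460 CPM in whole-body cells, with overlap and an edgeR adjusted p of 0.494.

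**Figure D2:**
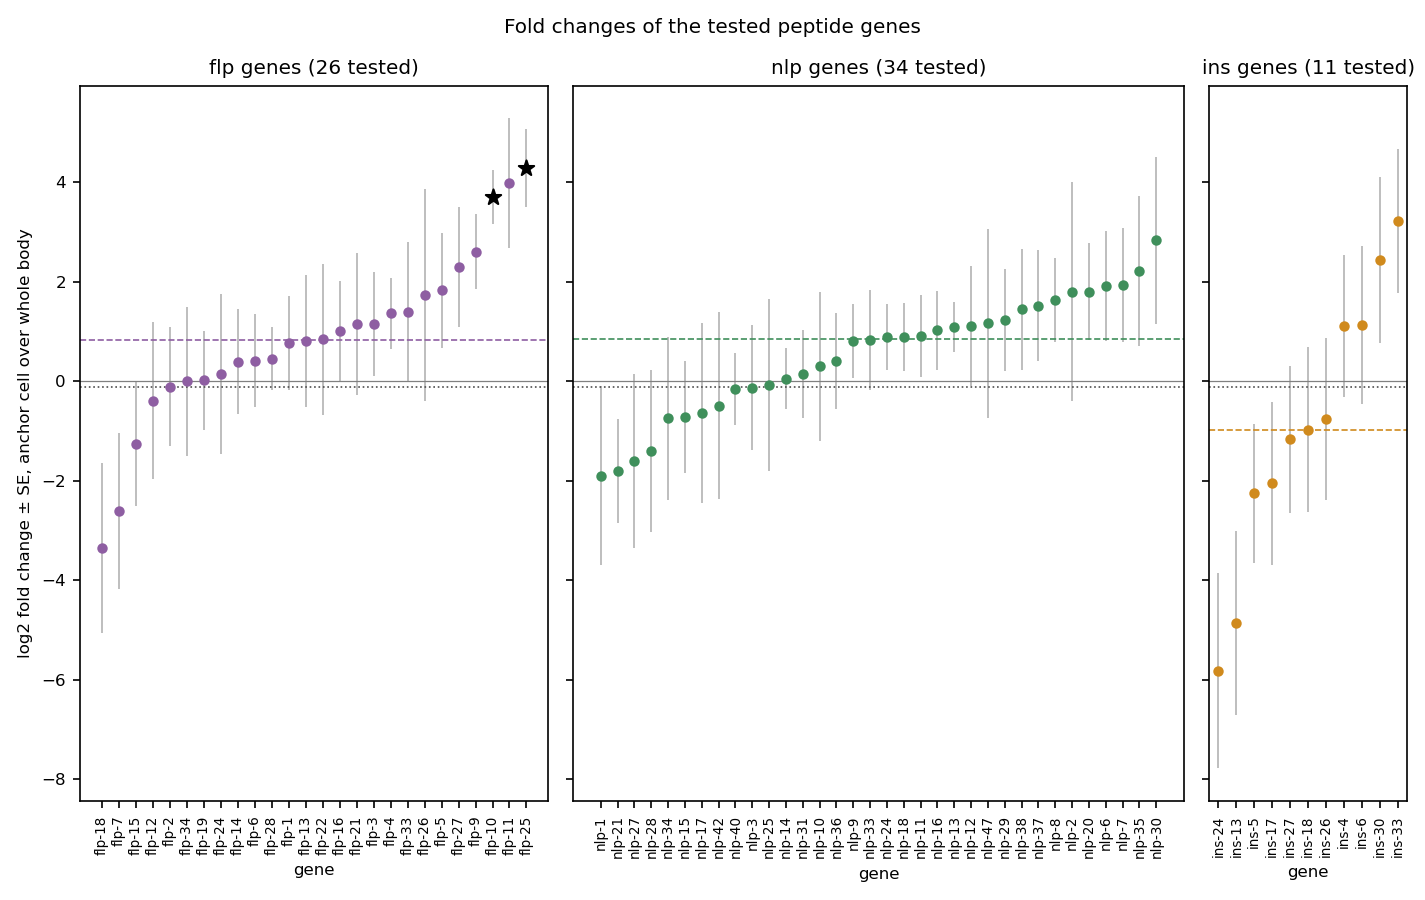
Log2 fold change of anchor cell over whole-body libraries for each of the 71 tested peptide genes, by family, with SE as vertical bars, the median of each family dashed and that of all tested genes dotted. Stars mark flp-10 and flp-25, the only genes past the threshold; the family medians are 0.83 for flp, 0.86 for nlp and -0.98 for ins, against -0.12 for all tested genes.

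Detection differed between the families. Of the 114 genes, 38 had at least 10 counts in all 3 anchor cell libraries, made up of 16 flp, 21 nlp and 1 ins genes. In the whole-body libraries 56 did so, made up of 22 flp, 28 nlp and 6 ins genes. Shared by both sets were 36 genes, and the 2 found in the anchor cell set alone were flp-13 and ins-33. Of the 11955 tested genes, which leave out those below the filter, 6410 reached 10 counts in all 3 anchor cell libraries. In all 3 whole-body libraries 10574 did so. Among the peptide genes, no read was found in any anchor cell library for 18, of which 12 were ins genes. Of those 18 genes, ins-7, ins-8, ins-20, ins-32 and nlp-39 had no read in any of the 6 libraries, and the other 13 had whole-body reads. The reverse, reads in anchor cells and none in whole-body cells, held for ins-2, ins-16 and ins-31, each in 1 library and with at most 14 counts.

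Depth bears on these counts. A count of 3 equals 0.119 to 0.154 CPM in the anchor cell libraries and 0.0483 to 0.106 CPM in the whole-body libraries, since anchor cell libraries had smaller effective sizes. Peptide genes with at least 1 count numbered 85, 72 and 62 in the anchor cell libraries and 100, 98 and 80 in the whole-body libraries. Over all gene rows the numbers were 16990, 11508 and 11073 against 21246, 22216 and 17185, so fewer genes read was not particular to peptide genes. A gene with no reads is therefore undetected at this depth and not shown to be absent. Outside rRNA and mitochondrial genes, anchor cell replicate 3 held 13113371 counts and whole-body replicate 3 held 9553873, with 62 and 80 peptide genes read. At a minimum of 1 CPM, no fewer peptide genes were found in all anchor cell libraries than in all whole-body libraries. Beyond that setting, how far depth accounts for the difference in detection was not tested.

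**Figure D3:**
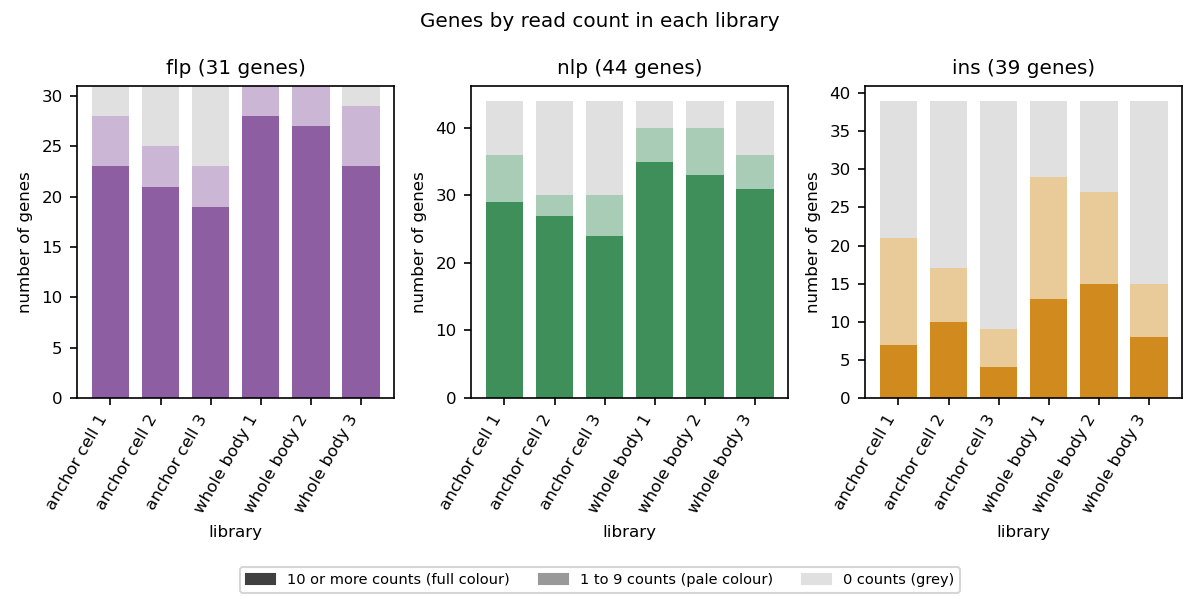
Number of flp, nlp and ins genes in each library with 10 or more counts (full colour), 1 to 9 counts (pale) and 0 counts (grey). Each stack adds up to the family's size, and the ins stack holds the largest grey share in all 6 libraries.

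Detection within the anchor cell group was uneven. At least 10 counts were reached in exactly 1 anchor cell library by 22 genes and in exactly 2 by 14 genes, whereas the same held in whole-body cells for 5 and 20 genes. The 22 genes include flp-26, with 0, 0 and 145 counts, nlp-2, with 0, 143 and 0 counts, and flp-32, with 42, 0 and 0 counts. Each of these was carried by a different anchor cell library, and the whole-body counts were 58, 34 and 4 for flp-26, 13, 6 and 48 for nlp-2, and 5, 9 and 0 for flp-32. The median coefficient of variation over the 71 tested genes was 93.0% in anchor cells and 52.9% in whole-body cells, and over all tested genes 87.4% and 34.5%.

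Summed over all 114 genes, peptide gene reads came to 721.6, 929.1 and 1372 CPM in anchor cells and 473.7, 411.7 and 292.9 CPM in whole-body cells. All anchor cell libraries were above all whole-body libraries, with means of 1008 ± 332.4 and 392.8 ± 91.9 CPM (SD, n = 3). The flp genes made most of the gap, at 284.9, 498.5 and 772 CPM against 148.9, 97.5 and 74.1 CPM. The nlp sums were 423.2, 389.7 and 581.5 CPM against 302.8, 290.3 and 209.9 CPM, and the ins sums of 13.4, 40.9 and 18.8 CPM overlapped the 22.1, 23.9 and 9.01 CPM of whole-body cells. As a share of raw gene counts the groups overlapped, at 0.0640%, 0.0656% and 0.0925% in anchor cells and 0.0552%, 0.0682% and 0.0356% in whole-body cells, unlike the TMM-scaled sums. Mitochondrially encoded genes took 22.9% to 48.1% of the anchor cell counts and 4.68% to 7.17% of the whole-body counts, and nuclear rRNA genes 18.4% to 42.9% and 32.1% to 54.3%. As a share of the counts outside both classes, with no TMM scaling, peptide genes made up 0.191%, 0.192% and 0.217% in anchor cells and 0.137%, 0.108% and 0.0868% in whole-body cells, again without overlap.

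**Figure D4:**
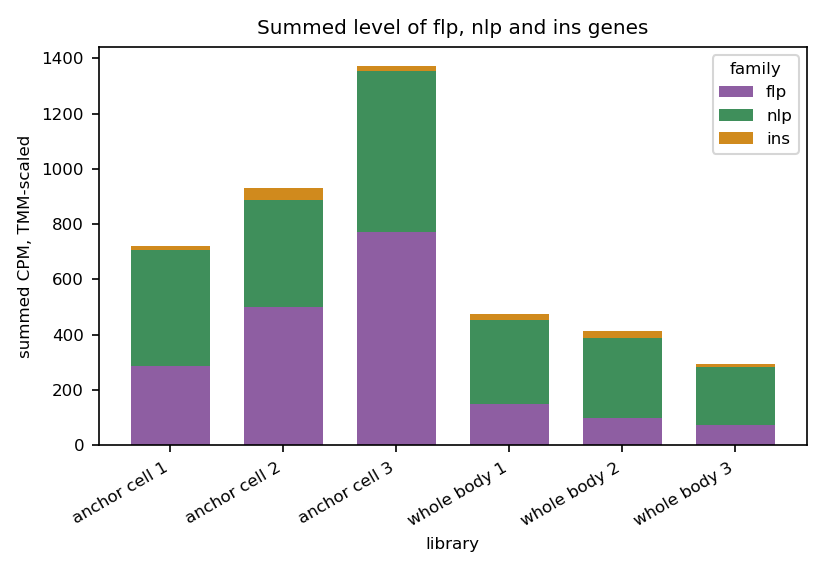
Summed CPM of the flp, nlp and ins genes in each library, TMM-scaled, stacked by family. The anchor cell stacks reach 721.6 to 1372 CPM and the whole-body stacks 292.9 to 473.7 CPM, and the ins layer is thin in every library.

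A few genes carried much of these sums. In anchor cells flp-10 made up 15.1%, 23.6% and 23.8% of all peptide gene counts, and in whole-body cells 2.68%, 3.44% and 7.94%. The gene nlp-8 made up 25.3% in anchor cell replicate 1 and 2.07% and 1.81% in replicates 2 and 3. Without flp-10, nlp-24, flp-9, nlp-14 and nlp-8, the sums were 303.8, 412.9 and 528.3 CPM in anchor cells and 275, 209.1 and 178.7 CPM in whole-body cells, still without overlap. TMM-scaled sums over all 11955 tested genes did not overlap either, so this is not particular to peptide genes. They were 1125000, 1415000 and 1483000 CPM in anchor cells and 856600, 602000 and 821300 CPM in whole-body cells.

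Per kilobase of exon, the highest peptide gene levels in anchor cells were 320.4 CPM per kb for flp-10, 284.5 for nlp-24 and 221.2 for flp-9. Each of these neighbours differed by less than 1 SD, so their order is not settled by the data. In whole-body cells nlp-24 led at 154.3 CPM per kb, apart from the next, nlp-14 at 48.5 CPM per kb, by more than its SD. There flp-10 stood at 24.5 CPM per kb.

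Across the 71 tested genes 9 were apart with anchor cells higher, or 12.7%, beside 12.4% of all tested genes. These were flp-4, flp-9, flp-10, flp-11, flp-25, flp-27, flp-28, nlp-7 and nlp-13, so 7 of the 9 were flp genes. Apart with anchor cells lower were 6, or 8.45%, beside 23.2% of all tested genes. These were flp-7, flp-15, flp-18, nlp-21, ins-13 and ins-24. At an unadjusted p under 0.05 in edgeR there were 4 genes higher, flp-9, flp-10, flp-11 and flp-25, and 2 lower, ins-13 and ins-24, beside 11.2% and 13.2% of all tested genes. The median log2 fold change of the 71 genes was 0.82, with 48 above 0, beside a median of -0.12 for all tested genes. With libraries scaled by their totals alone the medians were -0.05 and -0.94, and 34 of the 71 lay above 0.

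The order of the 71 genes by level was compared between libraries. Among the anchor cell libraries Spearman's rho across genes was 0.59 to 0.71. Among the whole-body libraries it was 0.62 to 0.92, and for pairs taken from both groups 0.55 to 0.72. Genes are not independent replicates, and these values are a description of the libraries.

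**Figure D5:**
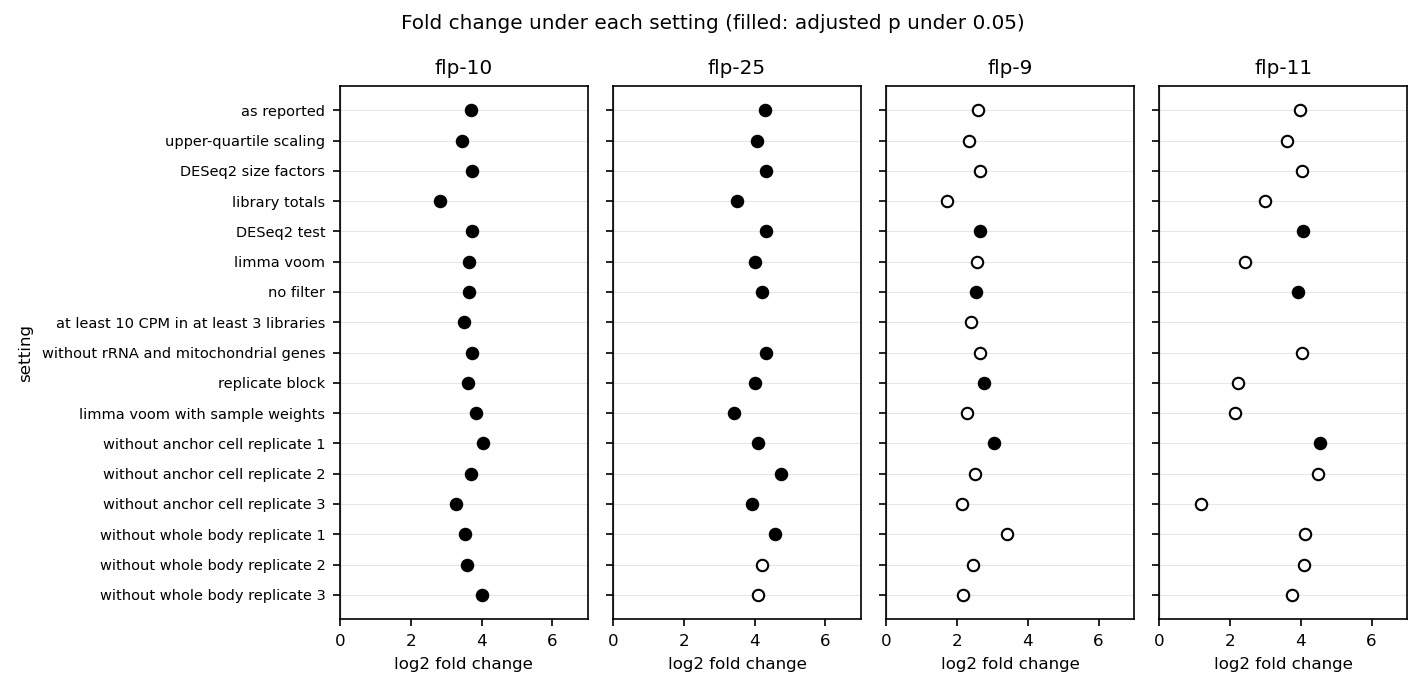
Log2 fold change of flp-10, flp-25, flp-9 and flp-11 under each way of processing the counts, with filled points past the threshold. All points of flp-10 are filled, flp-25 loses the call without whole-body replicate 2 or 3, and flp-25 and flp-11 have no point at the strictest filter, where they were not tested.

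The families also differed in genome position, which the naming rule did not use. On the X chromosome lay 13 of 31 flp genes, or 41.9%, and 9 of 41 placed nlp genes, or 21.95%, but 2 of 39 ins genes, or 5.13%, beside 13.6% of all protein coding genes in the files. Both genes that rose, flp-10 and flp-25, are autosomal. The ins genes lay mostly on chromosomes II, with 16, and I, with 10.

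The machinery that makes and releases these peptides was examined through lists of known genes. Of 14 processing genes, all tested, none passed in either direction by edgeR, with a median log2 fold change of 0.34. At an unadjusted p under 0.05 in edgeR, 1 was higher and 1 lower, or 7.14% each, beside 11.2% and 13.2% of all tested genes. The convertase gene egl-3 stood at 524.1, 208.5 and 263.7 CPM in anchor cells and at 261.1, 172.3 and 107.4 CPM in whole-body cells, with overlap. The carboxypeptidase gene egl-21 stood at 80.3, 71.9 and 137.4 CPM in anchor cells and at 89.7, 69.3 and 43.9 CPM in whole-body cells, also with overlap. The gene sbt-1, a chaperone of the convertase, stood at 71.5, 96.9 and 139.0 CPM against 50.5, 32.6 and 22.8 CPM, apart but with an edgeR adjusted p of 0.0833. It was the only processing gene apart with anchor cells higher, or 7.14%, beside 12.4% of all tested genes. Apart with anchor cells lower were 3, or 21.4%, beside 23.2% of all tested genes. These were the furin-like convertase gene kpc-1, at 7.01, 7.88 and 0.241 CPM against 16.3, 14.7 and 19.6 CPM, the carboxypeptidase gene cpd-1, at 7.17, 2.71 and 2.22 CPM against 17.03, 17.96 and 10.3 CPM, and the neprilysin gene nep-2. None of the 3 passed, with edgeR adjusted p of 0.342, 0.169 and 0.457.

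Of 11 tested dense core vesicle genes none passed by edgeR, with 2 higher, or 18.2%, at an unadjusted p under 0.05, beside 11.2% of all tested genes. The smallest p belonged to cccp-1, which acts in vesicle maturation, at 22.8, 37.0 and 12.9 CPM in anchor cells and 4.99, 5.46 and 3.99 CPM in whole-body cells, apart, with an edgeR adjusted p of 0.0693. Of 98 peptide receptor genes 64 were tested and none passed by edgeR, with a median log2 fold change of -0.74. For 3 higher and 9 lower receptor genes the unadjusted p was under 0.05, which is 4.69% and 14.1% of those tested, beside 11.2% and 13.2% of all tested genes. Among them npr-16 had no anchor cell reads and stood at 1.21, 0.901 and 0.813 CPM in whole-body cells, with an edgeR adjusted p of 0.0682.

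Of 18 insulin signalling genes, par-5 rose and none fell, beside 2.01% of all tested genes called higher and 1.05% called lower. At an unadjusted p under 0.05 in edgeR 3 were higher, or 16.7%, and none lower, beside 11.2% and 13.2% of all tested genes. The gene par-5 encodes a 14-3-3 protein that binds phosphorylated DAF-16. It stood at 320.3, 672.6 and 656.5 CPM in anchor cells and at 162.6, 133.7 and 162.1 CPM in whole-body cells. The groups of par-5 were apart, with a log2 fold change of 1.85 ± 0.42 and an edgeR adjusted p of 0.0446. Over all the pathway lists, DESeq2 called 5 of 127 genes higher, or 3.94%, beside 5.37% of all genes, and 11 lower, or 8.66%, beside 10.6%. Limma voom called 7 of 114 lower, or 6.14%, beside 9.02% of all genes. No gene of these lists passed with upper-quartile scaling or library totals, so the call of par-5 depends on the scaling. The receptor gene daf-2 stood at 167.0, 93.0 and 69.0 CPM in anchor cells and at 139.8, 131.7 and 111.9 CPM in whole-body cells, with overlap and a log2 fold change of -0.22 ± 0.43. For daf-16 the log2 fold change was 0.23 ± 0.36, again with overlap.

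Markers of neurons were examined beside the peptide genes. Their median log2 fold change was 0.68, below the 1.61 of the epidermal markers. Summed over 30 neuronal marker genes, the anchor cell libraries held 7357, 4746 and 4930 CPM and the whole-body libraries 1777, 1380 and 1286 CPM, without overlap. The groups were apart with anchor cells higher for 8 of the 30 genes, or 26.7%, beside 12.4% of all tested genes, and lower for 4, or 13.3%, beside 23.2%. Of the 30, 1 was called higher, unc-119, and 1 lower, tag-63, beside 2.01% of all tested genes called higher and 1.05% called lower. The gene unc-119 stood at 506, 2604 and 2123 CPM in anchor cells and at 4.51, 3.57 and 1.84 CPM in whole-body cells, an edgeR log2 fold change of 9.04 with an adjusted p of 0.00216. That was the largest log2 fold change of the 30, of which 21 were above 0 and 9 below 0. For rab-3 it was 1.53 and for snb-1 1.78. Why unc-119 differed so much more than these markers was not tested. Without unc-119 the sums were 6851, 2142 and 2807 CPM against 1773, 1376 and 1284 CPM, and the median log2 fold change of the other 29 genes was 0.59. Of what remained, unc-44, an ankyrin gene, held 5075, 1032 and 1623 CPM against 851.8, 678.5 and 693.1 CPM. Without both genes the sums were 1776, 1110 and 1184 CPM in anchor cells and 920.8, 698.0 and 590.6 CPM in whole-body cells, still apart. TMM-scaled sums over all 11955 tested genes were apart too, with means of 1341000 CPM in anchor cells and 760000 CPM in whole-body cells. A sum that lies apart is thus not particular to these markers. Over the 30 genes the highest anchor cell library was replicate 1 for 21, replicate 2 for 5 and replicate 3 for 4. Over all 11955 tested genes it was replicate 1 for 5152, replicate 2 for 3269 and replicate 3 for 3534. The median coefficient of variation of the 30 genes was 79.3% in anchor cells and 28.7% in whole-body cells. For all tested genes it was 87.4% and 34.5%, so uneven anchor cell libraries were not particular to neuronal markers. Some markers of subsets of neurons, picked after their values were seen, were uneven between anchor cell libraries, and the other subset markers are left out here. The counts in replicates 1, 2 and 3 were 247, 0 and 0 for ttx-3, 13, 0 and 0 for mec-3, 1016, 29 and 27 for unc-86, 12, 193 and 1 for unc-47, and 35, 310 and 1 for cho-1. Of the 30 genes, egl-3, egl-21, sbt-1, unc-31 and ida-1 also stand in the peptide machinery lists. The part of neuronal RNA in the levels of flp-10, flp-25 and the other peptide genes was not tested.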

How the data were processed

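RNA-seq libraries of anchor cells and whole-body cells, 3 each, were compared. The authors deposited unnormalized read counts for each gene. Named in the submitters' processing notes are the genome build WBcel235 and STAR and HTSeq, with FastQC and Trim Galore, and DESeq2 1.30.1 in R 4.0.2; the annotation release and strand setting were not given in those notes. Rows that name no gene stayed out; 0.807% to 3.88% of a library's reads had no gene and 0.303% to 0.677% were ambiguous. Gene rows matched the Ensembl 115 annotation of WBcel235 in 99.1% of cases and 111 of 114 peptide genes did; nlp-37, nlp-38 and nlp-42 did not.

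Genes were kept by filterByExpr, scaled by TMM and tested with edgeR 4.0.16 (robust quasi-likelihood, group as the only term) in R 4.3.3. The SE is the absolute log2 fold change divided by the square root of F. The step was tested on simulated data. DESeq2 1.42.0 and limma 3.58.1 voom, other scalings and filters, a replicate block and each library left out were alternatives; voom with sample weights was added after seeing the data. No library duplicated another.

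The rule for named genes took every called gene, the 4 most abundant tested genes per family and group, genes with at least 10 counts in all 3 anchor cell libraries, and the 3 highest and 3 lowest uncalled log2 fold changes, 46 genes in all. Other genes in the text were chosen after their values were seen. The members and lists were chosen with earlier results of these data known.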

Additional observations from a re-analysis of the deposited data

How the results depend on the processing

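Peptide genes called higher, 2 by edgeR, numbered 5 with DESeq2, 4 with no filter, 1 with at least 10 CPM in at least 3 libraries, and 1 to 4 with each library left out in turn. Those called lower, 0 by edgeR, numbered 3 with DESeq2, 2 with limma voom, 3 with voom and sample weights, and 0 to 0 with each library left out. Of all genes, 240 higher and 125 lower, 65.8% of the calls were rises. This share was 20.9% with library totals (98 higher and 372 lower), 33.6% with DESeq2 (798 and 1580), 26.6% with voom (390 and 1078) and 32.6% with voom and sample weights (663 and 1368). With no filter the counts were 603 and 372, and with the 10 CPM filter 197 were lower. Leaving out each library gave 31 to 966 higher and 7 to 1156 lower, the fewest without whole-body replicate 3 and the most without anchor cell replicate 1.

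Same-numbered libraries did not deviate together (r of 0.053, -0.032 and -0.003), so no pairing by number was seen. With 3 libraries per group such values cannot exclude that same-numbered libraries shared a culture. With the replicate number as a block, all genes gave 390 higher and 338 lower calls, the peptide genes added flp-9, and the pathway lists gave 1 lower.

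Over the pathway lists, calls higher, 1 by edgeR, were 0 with upper-quartile scaling, 0 with library totals, 5 with DESeq2, 3 with no filter, 4 with weighted voom and 0 to 7 with each library left out. Calls lower, 0 by edgeR, were 11 with DESeq2, 7 with voom, 1 with no filter, 14 with weighted voom and 0 to 14 with each library left out. Without rRNA and mitochondrial genes, which shrinks the library size by construction, the mean summed CPM was 2466 in anchor cells and 934.9 in whole-body cells. Without the 5 leading genes it was 415 and 220.9. With library totals it was 531.2 in whole-body cells and higher in anchor cells, but there the libraries of the groups overlapped. At a minimum of 1 CPM, 32 peptide genes were found in all whole-body libraries in place of 56. At least as many were found in all anchor cell libraries at that minimum.

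The log2 fold changes of some uncalled genes turned sign. With library totals they were -0.19 for flp-1, -0.034 for flp-13, -0.44 for flp-14, -0.82 for flp-19, -0.37 for flp-28, -0.27 for flp-6, -0.81 for nlp-14, -0.11 for nlp-24, -0.59 for nlp-31, -0.37 for nlp-36 and -0.052 for nlp-9. With weighted voom they were -0.36 for flp-1, -0.065 for flp-19, -1.24 for ins-4, -0.53 for nlp-14 and -0.94 for nlp-30. With upper-quartile scaling they were -0.21 for flp-19 and -0.16 for nlp-14, with no filter -0.056 and -0.025, and with the 10 CPM filter -0.13 for nlp-14. For flp-2 the value was 0.011 with voom and 0.023 with the block. With each library left out they ran from -0.87 to 1.20 for flp-1, -0.62 to 1.64 for flp-13, -0.10 to 1.10 for flp-14, -0.47 to 1.10 for flp-19, -0.60 to 0.31 for flp-2 and -0.39 to 0.71 for flp-6. The nlp ranges were -0.35 to 0.41 for nlp-14, -0.19 to 0.68 for nlp-31, -0.072 to 0.78 for nlp-36, -0.79 to 0.16 for nlp-40 and -0.14 to 2.09 for nlp-8. Where not stated, the cause of a change was not tested. Genes with few or no reads fell below the filter and got no edgeR test, so for them depth limits what was compared.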

Other observations

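A few other secreted peptide genes lie outside the flp, nlp and ins names. The gene snet-1, a regulator of olfactory memory, stood at 123.4, 13.5 and 6.31 CPM in anchor cells and at 9.54, 6.60 and 3.99 CPM in whole-body cells, so that anchor cell replicate 1 was far above the rest, with an edgeR adjusted p of 0.122. The gene pdf-1, which encodes pigment dispersing factor peptides, had means of 94.3 ± 91.65 CPM in anchor cells and 78.5 ± 41.7 CPM in whole-body cells (SD, n = 3), with overlap. Replicate 1 was thus the highest anchor cell library for snet-1 and pdf-1, as it was for nlp-8. Of 11 caenacin genes, a family of epidermal antimicrobial peptides, 4 were tested and none passed by edgeR, with none at an unadjusted p under 0.05 in either direction.

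The insulin-like gene ins-35 was below the filter, with 44, 7 and 8 counts in anchor cells and 2, 5 and 2 in whole-body cells. All anchor cell counts were above all whole-body counts, and DESeq2 called it higher. The gene nlp-26 gave 1, 0 and 0 counts in anchor cells and 0, 30 and 26 in whole-body cells, a ratio of 27.8 (95% exact counting interval 4.79 to 1118). Whole-body replicate 1 also had no nlp-26 read.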
